A study of Mus musculus with 24 samples.

Results

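The repeat subfamilies of class Satellite were followed in RNA-seq of mouse embryonic stem cells, with and without induction of the transcription factor DUX. They were found by the class given in each feature's name, as subfamily, family and class, and 9 of the 1146 repeat subfamilies in the count tables carry it. The 9 are GSAT_MM, MMSAT4, IMPB_01, ZP3AR, SYNREP_MM, SUBTEL_sa, MurSAT1, (CATTC)n and CENSAT_MC, out of 56633 genes and repeats in all. The cells were of the KH2 line and held a transgene for DUX under a promoter that doxycycline switches on (TRE_DUX in the titles). Each of 6 lines was sampled without doxycycline (DOX) and after 16 h of DOX, with 2 libraries per group and 24 in all. WT and DUXBL-KO made up 8 libraries. TRIM24-KO, TRIM33-KO and WT pLV2 lines 1 and 2, all with pLV2 in their titles, made up the other 16. DUXBL, TRIM24 and TRIM33 are a homeobox factor and members of the tripartite motif family, and the study's title asks how DUXBL bears on the exit from the totipotent state. The name pLV2 is not explained in the labels, and neither is how the replicates were made or which WT line is the parent of which knockout. The p-values below therefore measure the spread between these libraries, which may be technical.

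Satellites are tandem arrays of a short unit, repeated over long stretches of a chromosome. In the mouse, the major satellite (GSAT_MM, gamma satellite) fills the heterochromatin beside the centromeres, where histone H3 is methylated at lysine 9 by SUV39H enzymes and read by HP1 proteins. It is known to be transcribed in a burst at the 2-cell stage of the embryo, the state that DUX is known to induce in a share of cultured stem cells. The other satellites have their own units, and less is known of their transcripts.

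The unit itself is shown first, since a reader of the counts sees only its name. The count tables hold no sequence, so the unit was taken from GENCODE M21, whose long noncoding transcript Gm26870-202 is a tandem array. Gm26870 lies on the minus strand of chr9:3000282-3038313 (mm10), at the start of the assembled chromosome. Its transcript has 1143 bases in 3 exons, with 35.6% G and C, and each base matched the one 234 bases on in 95.9% of positions. A 234-base period is the known unit length of the mouse major satellite. The first 2 units, adjacent in the exon at chr9:3037728-3038310, are printed 5′ to 3′ in the sense of the transcript, with the 17 bases at which they differ in capitals. The upper one is chr9:3038077-3038310 and the lower one is chr9:3037843-3038076, both on the minus strand.
first unit: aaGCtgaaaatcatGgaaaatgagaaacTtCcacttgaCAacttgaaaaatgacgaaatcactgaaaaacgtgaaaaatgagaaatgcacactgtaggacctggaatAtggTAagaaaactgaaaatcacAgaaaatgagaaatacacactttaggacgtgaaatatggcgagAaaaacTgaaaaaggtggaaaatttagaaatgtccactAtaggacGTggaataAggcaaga
second unit: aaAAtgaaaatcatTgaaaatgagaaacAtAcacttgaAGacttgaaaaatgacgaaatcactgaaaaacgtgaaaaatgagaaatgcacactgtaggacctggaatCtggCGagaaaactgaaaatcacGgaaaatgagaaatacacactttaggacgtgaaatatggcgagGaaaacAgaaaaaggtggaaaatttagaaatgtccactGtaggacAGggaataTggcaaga
Of the 17 differing bases 8 lie next to another, and bases 41 to 107 of the unit hold none. Gm26870 itself has no values in the count tables, but 12 other genes that align to this unit do, and they are described after the satellites.

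Each library had 11784696 to 19136869 gene counts, and repeats took between 7.58% and 23.0% of all counts. Satellites together took 0.112% to 0.295% of all counts. The induction followed the titles, since Dux had 0 to 2 counts in each library without DOX and 20 to 110 in each with DOX. In 8 pLV2 libraries the treatment tag contradicts the title, and the titles were used. Trim33 was at 20.3 and 21.4 CPM (counts divided by the size of the library) in TRIM33-KO without DOX and at 115 to 140 CPM in WT pLV2. Trim24 was at 123 and 137 CPM in the libraries labelled TRIM24-KO. That is above WT pLV2 line 1 (94.5 and 100 CPM) and below line 2 (165 and 196 CPM). Whether Trim24 was lowered thus depends on the reference line. Duxbl1 had 6 and 16 counts in the libraries labelled DUXBL-KO and 6 and 24 in WT, so it was not lowered beyond the spread of its WT libraries. The stem cell identity was checked on 10 pluripotency genes, whose summed level lay between 4216 and 6080 CPM in all libraries with no gene at 0. Fibroblast markers, which feeder cells would bring, summed to 11.8 to 35.6 CPM, with Postn at 0 in 11 of the 12 groups. With DOX, 3%, 5.35%, 12.5%, 15.7%, 13.5% and 19.6% of all tested features were called higher in WT, DUXBL-KO, pLV2 lines 1 and 2 of WT, TRIM24-KO and TRIM33-KO, and 0.126%, 0.473%, 6.21%, 13.6%, 4.9% and 19.3% lower. In the same order, 0, 0, 1, 1, 2 and 2 of the 5 fibroblast markers tested were called higher and 0, 0, 0, 1, 0 and 1 lower. Of the 10 pluripotency genes, 0, 0, 2, 5, 5 and 5 were called lower and 0, 0, 2, 1, 0 and 1 higher. The 16 pLV2 libraries repeated each other more closely than the other 8, with a biological coefficient of variation of 8.73% against 17.6%. In 2 DOX libraries, replicate 2 of TRIM24-KO and replicate 2 of TRIM33-KO, the ribosomal RNA gene CT010467.1 took 30.4% and 12.9% of gene counts, against 0.0871% to 1.30% in all others. Without that library, 9.85% of features were called higher and 2.02% lower in TRIM24-KO, with 3 fibroblast markers higher and 3 pluripotency genes lower, and 19.2% and 10.4% in TRIM33-KO, with 4 pluripotency genes lower. Counts of called members and of called heterochromatin and centromere genes in these 2 lines are also given without that library, for the genes as an alternative chosen after seeing the data. In bulk RNA, a larger share of responding cells and more RNA in each cell cannot be told apart.

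GSAT_MM was higher with DOX than without it in 6 of 6 lines, and its libraries did not overlap between the conditions in any line. It passed the test in 5 of them, and in WT only under some alternatives given below, and the fold ranged from 5.14 in WT, where the test was missed, to 97.2 in TRIM33-KO. Fold changes are on a log2 scale with their standard error (SE), from edgeR's quasi-likelihood test with Benjamini-Hochberg adjustment over every gene and repeat tested in the contrast, and a feature was called at an adjusted p under 0.05.

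In WT, GSAT_MM had 70.7 and 18.5 CPM without DOX and 307 and 148 CPM with DOX. The conditions did not overlap, but the libraries within each were far apart. The difference was 2.36 ± 0.68, with an adjusted p of 0.173 (0.00977 before adjustment). Without replicate 1 of the WT libraries without DOX it was 3.61 (adjusted p 0.113), and without replicate 2 it was 1.71 (adjusted p 0.457). When all 24 libraries shared 1 fit it was 2.37, with an adjusted p of 0.00366. That fit takes its spread also from the pLV2 libraries, which repeated each other more closely. Replicate 1 was above replicate 2 in all 4 groups of WT and DUXBL-KO, and with the replicate number as a block the WT difference was 2.49 (adjusted p 8.65e-04).

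In the libraries labelled DUXBL-KO, GSAT_MM had 38.6 and 24.6 CPM without DOX and 522 and 238 CPM with DOX. Both DOX libraries were far above both others. It rose by 3.59 ± 0.71, with an adjusted p of 0.0284. That call was lost when replicate 1 with DOX (2.90, adjusted p 0.116), replicate 1 without DOX (3.92, adjusted p 0.127) or replicate 2 without DOX (3.27, adjusted p 0.174) was left out.

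In the pLV2 lines the level without DOX was low and even. WT pLV2 line 1 had 7.82 and 7.34 CPM without DOX and 196 and 253 CPM with DOX, a rise of 4.89 ± 0.24 (29.6-fold, adjusted p 1.41e-10). WT pLV2 line 2 went from 4.46 and 4.35 CPM to 448 and 296 CPM, a rise of 6.39 ± 0.26 (84.1-fold, adjusted p 5.15e-12). Both DOX libraries of line 2 were above both of line 1, and both of its libraries without DOX were below.

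The libraries labelled TRIM24-KO had 4.69 and 5.40 CPM without DOX and 143 and 237 CPM with DOX, a rise of 5.23 ± 0.25 (37.4-fold, adjusted p 6.98e-11). Without replicate 2 with DOX, the library rich in CT010467.1, the rise was 4.83 (adjusted p 7.15e-12). TRIM33-KO had 6.81 and 7.16 CPM without DOX and 672 and 687 CPM with DOX, the highest GSAT_MM levels of the 24 libraries. Its rise of 6.60 ± 0.25 (97.2-fold, adjusted p 1.39e-12) was 6.65 without replicate 2 with DOX. In these 4 lines no alternative fit ended the call.

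**Figure D1:**
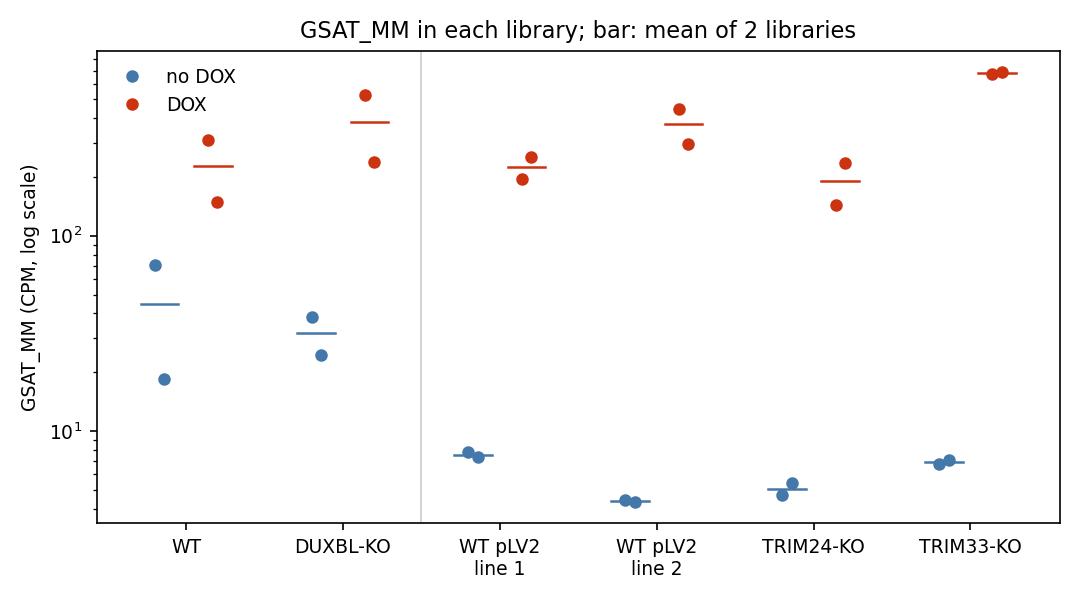
Level of GSAT_MM in each of the 24 libraries, in CPM on a log scale, by line, with a bar at the mean of the 2 libraries of a group. DOX libraries (red) lie at 143 to 687 CPM and libraries without DOX (blue) at 4.35 to 70.7 CPM, the highest of them in WT.

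To set levels in order, all 24 libraries were scaled together. With DOX the means were then 736 CPM in TRIM33-KO, 402 in WT pLV2 line 2, 338 in DUXBL-KO, 241 in WT pLV2 line 1, 201 in WT and 199 in TRIM24-KO. The libraries of neighbours in that order overlapped except between TRIM33-KO and line 2. With each set scaled apart, as in the values above, DUXBL-KO (mean 380) came before line 2 (372) and WT (228) before line 1 (225). Without DOX the order was WT, DUXBL-KO, WT pLV2 line 1, TRIM33-KO, TRIM24-KO and WT pLV2 line 2 under both scalings, and of the neighbours only WT and DUXBL-KO overlapped. WT and DUXBL-KO had 16.3 to 62.3 CPM and the pLV2 libraries 4.60 to 8.18 CPM on the common scale. The set and the cell line cannot be told apart here.

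GSAT_MM also changed its weight among the satellites. Its share of all satellite counts lay between 0.235% (Wilson 95% interval 0.192 to 0.288, WT pLV2 line 2) and 2.77% (2.60 to 2.95, WT) without DOX. With DOX it lay between 7.50% (7.23 to 7.78, WT) and 23.0% (22.5 to 23.4, TRIM33-KO). These intervals cover counting error only. The share of satellites as a whole in all counts did not follow DOX, being 0.112% to 0.295% with DOX and 0.148% to 0.287% without it. The lowest was replicate 2 of TRIM24-KO with DOX, the library rich in CT010467.1. Their share of repeat counts fell with DOX in each pLV2 line, as in TRIM33-KO from 2.38% and 2.80% to 0.921% and 1.03%. In WT and DUXBL-KO the conditions overlapped in that share.

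Among all repeat subfamilies, the log2 fold change of GSAT_MM stood 22nd of 981 in WT and 12th of 981 in DUXBL-KO. Its place was 10th, 9th, 8th and 8th of 965 in pLV2 lines 1 and 2 of WT, TRIM24-KO and TRIM33-KO. Most of the subfamilies above it were endogenous retroviruses and their long terminal repeats, such as MERVL-int and MT2_Mm, the known DUX-bound element of 2-cell embryos.

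Whether lines differed in the response of GSAT_MM was tested by interaction terms, and none passed over all features. Line 2 exceeded line 1 of WT pLV2 by 1.51 ± 0.36 (95% interval 0.75 to 2.26, adjusted p 0.0686). Without replicate 2 of line 2 with DOX it was 1.77 (adjusted p 0.00923). TRIM33-KO exceeded the mean of both WT pLV2 lines by 0.96 ± 0.29 (95% interval 0.34 to 1.58, adjusted p 0.138). With line 1 as the sole reference it was 1.71 (adjusted p 0.00708), and with line 2 it was 0.21 (adjusted p 1). It also reached an adjusted p of 0.0266 when replicate 1 of line 2 with DOX was left out. The libraries labelled TRIM24-KO differed from WT pLV2 by -0.42 ± 0.32 (95% interval -1.09 to 0.26, adjusted p 0.772), with 0.34 (adjusted p 0.918) against line 1 alone, -1.17 (adjusted p 0.201) against line 2 alone and -0.86 (adjusted p 0.227) without the library rich in CT010467.1. The libraries labelled DUXBL-KO differed from WT by 1.23 ± 0.93 (95% interval -0.94 to 3.40, adjusted p 1), and by -0.05 without replicate 1 of WT without DOX.

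For MERVL-int, the same interactions were 1.98 ± 0.22 for line 2 against line 1 (adjusted p 9.15e-04) and 1.44 ± 0.19 for TRIM33-KO (adjusted p 0.0018). Over the 12 DOX libraries, log2 CPM of GSAT_MM and MERVL-int had a Pearson r of 0.88 and a Spearman correlation of 0.832. With Dux the values of GSAT_MM were weaker, at 0.557 and 0.517. The points share lines and libraries, so this is a description. MERVL-int itself rose by 6.83 ± 0.44 to 9.49 ± 0.22 over the lines. The summed level of 10 markers of 2-cell-like cells was 7.66 to 12.8 CPM without DOX and 740 to 7223 CPM with DOX. Up to 3 of them (Gm4340, Tdpoz4 and Pramef25, in WT) had no count in the libraries of a line without DOX, and with DOX none was at 0, so no count of calls is given for this list. TRIM33-KO had the highest sum, at 6552 and 7223 CPM, and line 2 of WT pLV2 had 3722 and 4920 against 1378 and 1695 in line 1. The part of such cells in the GSAT_MM level was not tested.

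**Figure D2:**
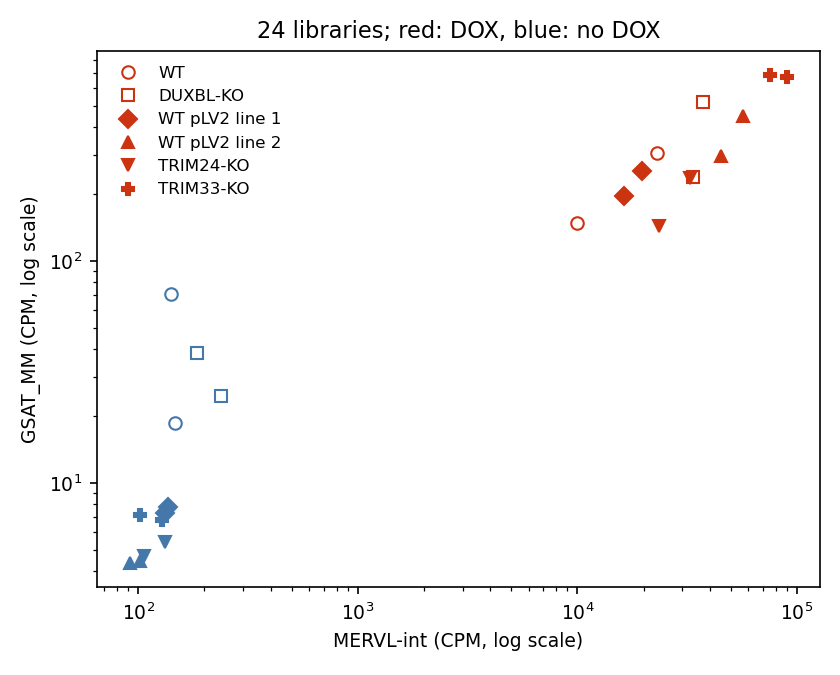
GSAT_MM against MERVL-int in the 24 libraries, both in CPM on log scales, with DOX in red and no DOX in blue. The DOX libraries run from the lower left to the upper right, with WT and TRIM24-KO at the low end of GSAT_MM and TRIM33-KO at the top, while WT and DUXBL-KO without DOX lie above the other blue points at similar MERVL-int.

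No other satellite was called in WT or DUXBL-KO. Counted over the members that passed the filter on low counts, 0 of 6 were called in WT, where 3.12% of all tested features were called and 1 member had an unadjusted p under 0.05. With the replicate block it was 1 (GSAT_MM), with 5.47% of all features. In DUXBL-KO the count was 1 of 6 (GSAT_MM), with 5.82% of all features. In the pLV2 set SYNREP_MM passed the filter only through its DOX libraries, so its calls, in TRIM33-KO and line 2, are left out of the count there. Of the 4 other members tested, 2 (GSAT_MM and IMPB_01) were called in each pLV2 line, against 18.7% of all features in WT pLV2 line 1, 18.4% in TRIM24-KO, 29.3% in WT pLV2 line 2 and 38.9% in TRIM33-KO. Without replicate 2 with DOX, only GSAT_MM was called in TRIM24-KO, with 11.9% of all features, and both were called in TRIM33-KO, with 29.6%. No member was called lower with DOX in any line. Of the repeat subfamilies alone, 5.1%, 18.2%, 54.3%, 49.5%, 68.6% and 76.3% were called in the same order of lines, and 2 of 4 members is near or below the shares of the pLV2 lines.

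**Figure D3:**
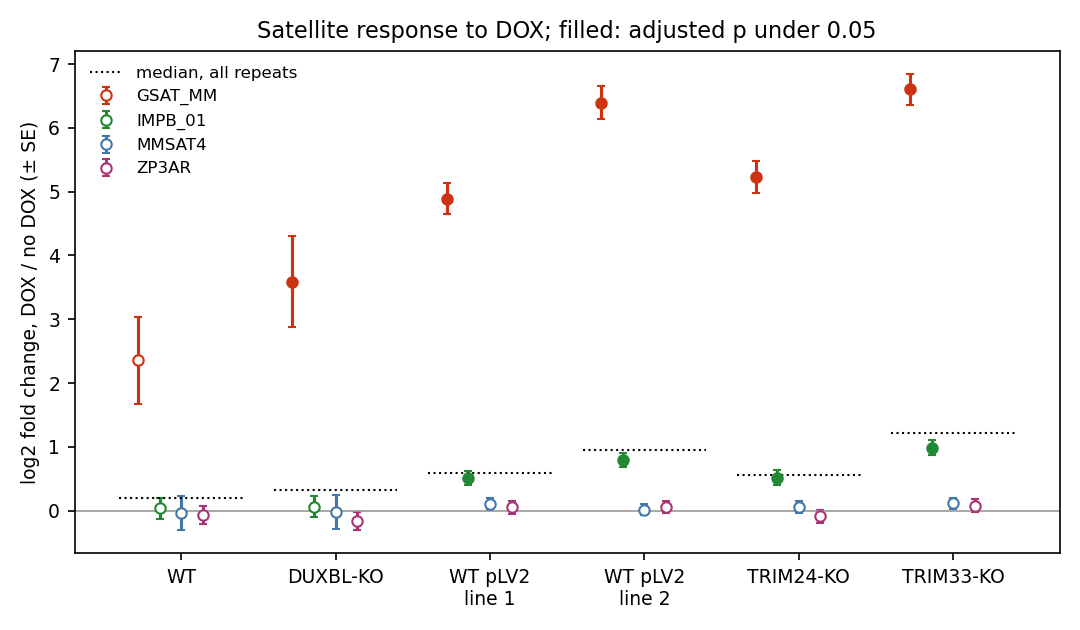
Log2 fold change with DOX against no DOX, with its SE, for 4 satellites in each line, filled where the adjusted p was under 0.05, and a dotted line at the median of all tested repeats. GSAT_MM lies far above that median in all 6 lines, IMPB_01 just below it, and MMSAT4 and ZP3AR near 0.

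IMPB_01 rose moderately, and only in the pLV2 lines did it pass the test. WT pLV2 line 1 had 165 and 165 CPM without DOX and 232 and 238 with DOX, a rise of 0.51 ± 0.11 (adjusted p 0.00388). In WT pLV2 line 2 it went from 181 and 170 CPM to 297 and 309, a rise of 0.79 ± 0.11 (adjusted p 3.99e-05). TRIM33-KO went from 193 and 215 CPM to 374 and 435, a rise of 0.99 ± 0.11 (adjusted p 2.28e-06), and 0.94 without replicate 2 with DOX. In all 3 lines the DOX libraries were above the others. The libraries labelled TRIM24-KO went from 204 and 213 CPM to 251 and 347, a rise of 0.52 ± 0.11 (adjusted p 0.00324). Without replicate 2 with DOX this value was 0.27 (adjusted p 0.0646), so it rested on the library rich in CT010467.1.

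These rises were no larger than those of repeats at large. The median repeat moved by 0.59 and 0.95 in lines 1 and 2 of WT pLV2, by 0.56 in TRIM24-KO and by 1.21 in TRIM33-KO. In WT, IMPB_01 had 183 and 166 CPM without DOX and 175 and 182 with DOX, a difference of 0.03 ± 0.17 (95% interval -0.36 to 0.43). In DUXBL-KO it had 157 and 231 CPM and then 199 and 205, a difference of 0.06 ± 0.17 (95% interval -0.33 to 0.45). The libraries overlapped in both lines, and the difference between these lines and the pLV2 lines was not tested.

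MMSAT4 held most of the satellite counts, with 686617 over the 24 libraries against 56623 for GSAT_MM. It was not called in any line. Its levels were 1586 to 2239 CPM without DOX and 1581 to 2132 with DOX in WT, and 2042 to 2917 and 2010 to 2881 in DUXBL-KO, so the conditions overlapped almost wholly. In the pLV2 lines it lay between 1257 and 1947 CPM without DOX and between 1284 and 2068 with DOX. The log2 fold change lay between -0.04 in WT and 0.11 in TRIM33-KO. The 95% intervals reached from -0.67 to 0.60 in WT and DUXBL-KO and from -0.17 to 0.30 in the pLV2 lines. A 2-fold change was outside the interval in each line. Only in WT pLV2 line 1 were both DOX libraries (2068 and 2004 CPM) above the others (1842 and 1947), and a fit of that line alone called the difference of 0.14 (adjusted p 0.0126).

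ZP3AR behaved alike on this measure. It had 53.4 to 74.6 CPM in WT and DUXBL-KO and 41.8 to 58.5 CPM in the pLV2 lines, DOX and no DOX together. Only in TRIM24-KO did its libraries separate, with 55.3 and 58.5 CPM without DOX and 53.5 and 53.5 with DOX. The log2 fold change was between -0.16 in DUXBL-KO and 0.08 in TRIM33-KO, and no line passed the test. The 95% intervals lay within -0.49 and 0.29.

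**Figure D4:**
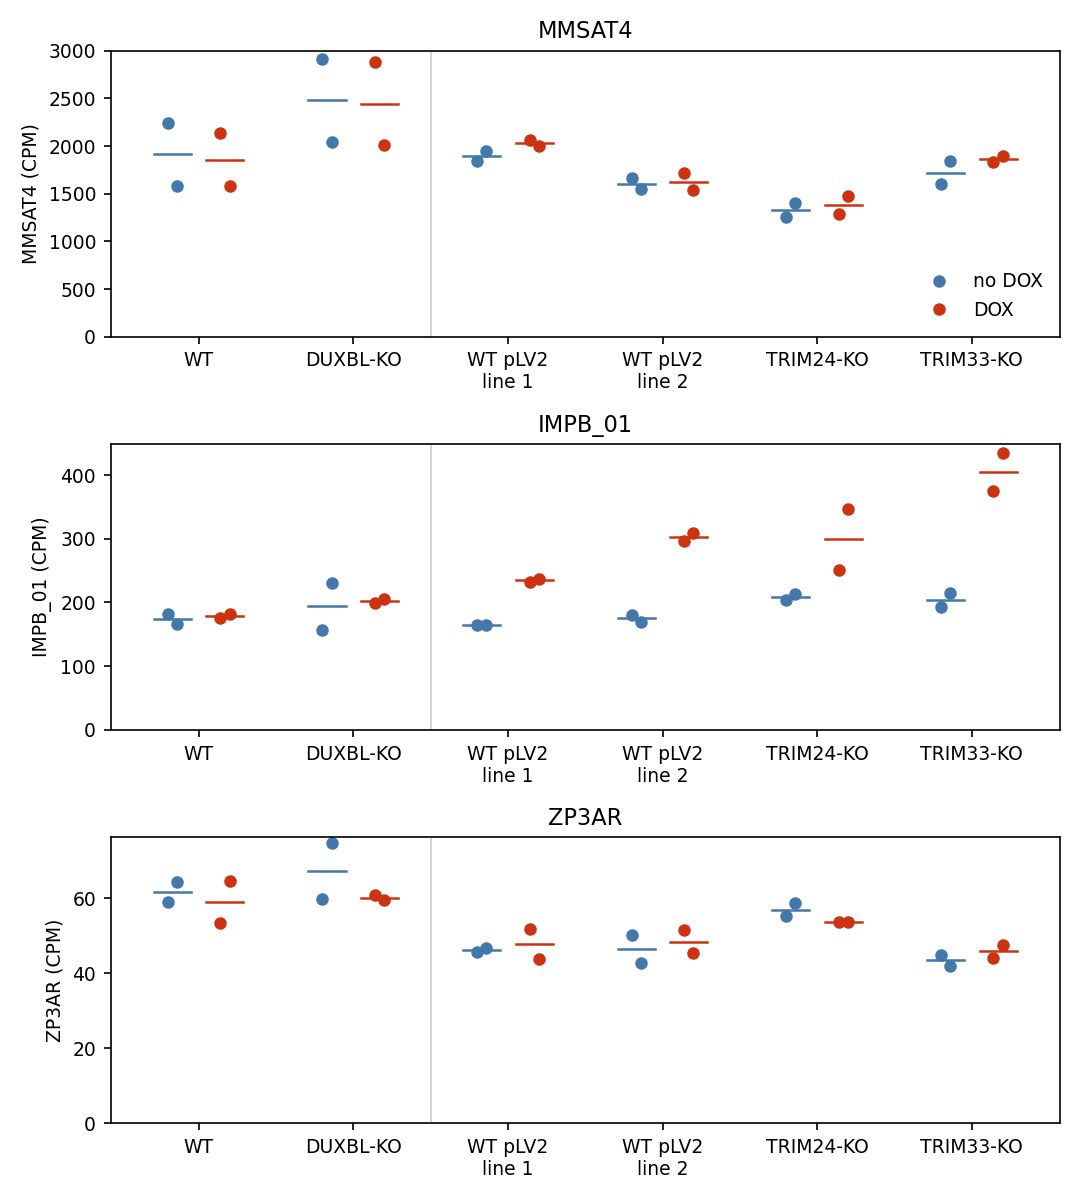
Levels of MMSAT4, IMPB_01 and ZP3AR in each library, in CPM from 0, with a bar at the mean of the 2 libraries of a group. The DOX libraries of IMPB_01 stand above those without DOX in the 4 pLV2 lines, up to 435 CPM in TRIM33-KO, and the points of MMSAT4 and ZP3AR mostly overlap.

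SYNREP_MM had few counts, 2 to 25 per library without DOX and 6 to 32 with DOX. In the pLV2 set it passed the filter only through its DOX libraries, so its counts are given there without a test. WT pLV2 line 2 had 2 and 3 counts without DOX and 20 and 14 with DOX, a ratio of pooled scaled counts of 9.48 with an exact interval of 3.69 to 31.1. TRIM33-KO had 7 and 5, and 9 and 20, with a ratio of 4.83 (2.39 to 10.4). Its fitted log2 change in that line was 2.26, and 1.49 without replicate 2 and 2.85 without replicate 1 with DOX. In WT pLV2 line 1 the counts were 4 and 9, and 12 and 14, with a ratio of 2.29 (1.13 to 4.84). The libraries labelled TRIM24-KO had 7 and 3, and 6 and 6 counts, a ratio of 2.04 (0.807 to 5.27). The intervals cover counting error only. WT had 5 and 13, and 11 and 20, and DUXBL-KO had 25 and 16, and 32 and 28, with adjusted p of 0.826 and 0.525. In CPM, DOX libraries were above the others in all lines but WT.

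The rest were near the limit of detection. SUBTEL_sa, named for subtelomeric repeats, had 2 to 14 counts in each library. It was tested in WT (0.69 ± 0.82, adjusted p 0.879) and DUXBL-KO (-0.28 ± 0.79, adjusted p 0.933) and was too low for a test in the pLV2 set. There its DOX libraries were below the others in CPM in WT pLV2 line 1 (9 and 8 counts, then 5 and 6) and in TRIM33-KO (10 and 13, then 5 and 3), and overlapped them in WT pLV2 line 2 and TRIM24-KO. MurSAT1 had 0 to 5 counts per library and 41 in all. It had a count in every library of WT and DUXBL-KO and in 7 of the 16 pLV2 libraries, and was not tested. Its DOX libraries were above the others in CPM only in TRIM33-KO, on 1 count each against 0 and 1. (CATTC)n had a single count, in a TRIM33-KO library without DOX. CENSAT_MC, of the centromeric family, had 0 counts in all 24 libraries, which allows up to 0.157 to 0.255 CPM per library. The counts of MurSAT1, (CATTC)n and CENSAT_MC are too few for a test of a difference.

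Without DOX, the lines labelled as knockouts were compared with WT. As given above, the transcript of Duxbl1 was not lowered, and that of Trim24 was below line 2 and above line 1 of WT pLV2. GSAT_MM was not called in any of the 3 comparisons, with -0.49 for DUXBL-KO against WT, -0.20 for TRIM24-KO and 0.27 for TRIM33-KO against WT pLV2. Its sign changed without replicate 1 of WT without DOX (0.78), for TRIM24-KO against line 2 alone (0.19) and for TRIM33-KO against line 1 alone (-0.12).

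In the libraries labelled TRIM24-KO, 3 of the 4 members other than SYNREP_MM were called, where 41.4% of all features and 13.4% of repeats were called. MMSAT4 was lower by -0.39 ± 0.08 (adjusted p 7e-04), at 1257 and 1399 CPM against 1549 to 1947 in the 4 WT pLV2 libraries. ZP3AR was higher by 0.30 ± 0.08 (adjusted p 0.00802), at 55.3 and 58.5 CPM against 42.8 to 50.3. IMPB_01 was higher by 0.30 ± 0.10 (adjusted p 0.0205), at 204 and 213 CPM against 165 to 181. The libraries of each did not overlap. The call of IMPB_01 was lost without replicate 1 (0.33, adjusted p 0.0697) or replicate 2 (0.32, adjusted p 0.0661) of TRIM24-KO without DOX, against line 2 alone (0.25, adjusted p 0.0786), and with p-values adjusted over repeats alone (adjusted p 0.0845). With all 24 libraries in 1 fit, MMSAT4 (-0.37, adjusted p 0.102) and IMPB_01 (0.32, adjusted p 0.0622) were not called.

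In TRIM33-KO, 0 of the 4 members other than SYNREP_MM were called against 22.5% of all features and 8.19% of repeats. Of these members, 1 was at an unadjusted p under 0.05. IMPB_01 came nearest, at 0.26 ± 0.10 (adjusted p 0.0598), and passed without replicate 1 of line 2 without DOX (0.31, adjusted p 0.0434) and in DESeq2 (adjusted p 0.0304). In DUXBL-KO, 0 of 6 were called against 0.0368% of all features, none of them at an unadjusted p under 0.05. With the replicate block MMSAT4 was called there (0.37, adjusted p 0.0497), with 2.1% of all features. Interaction terms with DOX gave 0 calls among members in all 4 tests, where 0%, 0.467%, 1.89% and 0.641% of all features were called for DUXBL-KO, TRIM24-KO, TRIM33-KO and line 2 against line 1, and 0%, 1.14%, 20.8% and 6.11% of repeats. At an unadjusted p under 0.05 there were 0, 0, 2 and 1 members, with SYNREP_MM left aside in the pLV2 set. DESeq2 called GSAT_MM for line 2 against line 1.

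Genes that build the heterochromatin around GSAT_MM were looked at as a list of 34, of which 33 matched and 31 were tested. In WT and DUXBL-KO none was called, against 1 (Uhrf1) and 3 (Uhrf1, Trim28 and Setdb1), all higher, with the replicate block, where 4.74% and 7.97% of all features were called higher. The list medians were 0.07 and 0.06 against 0.00 and 0.01 for all features. In the pLV2 lines some changed in both directions. TRIM33-KO had 6 higher and 14 lower, TRIM24-KO had 3 and 2, and lines 1 and 2 of WT pLV2 had 3 and 5, and 3 and 11. Of all features, 19.6% and 19.3% were called in these directions in TRIM33-KO, 13.5% and 4.9% in TRIM24-KO, 12.5% and 6.21% in line 1 and 15.7% and 13.6% in line 2. Without the library rich in CT010467.1, TRIM33-KO had 6 and 7 and TRIM24-KO had 1 and 0. The list medians were -0.15 in TRIM33-KO, -0.02 in TRIM24-KO, -0.11 in line 1 and -0.13 in line 2, against -0.06, 0.01, -0.01 and -0.05 for all features.

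Trim28, the corepressor KAP1 that recruits the H3 lysine 9 methylase SETDB1, rose in the 4 pLV2 lines, by 0.24 ± 0.06 in WT pLV2 line 1 (adjusted p 0.00975) and 0.50 ± 0.06 in TRIM33-KO (adjusted p 4.29e-06). Kmt5c, a histone H4 lysine 20 methylase of pericentromeric chromatin, rose by 0.45 ± 0.09 in WT pLV2 line 2 (adjusted p 8.72e-04) and by 0.56 ± 0.09 in TRIM33-KO (adjusted p 8.24e-05). Its relative Kmt5b fell by 0.45 ± 0.10 in line 2 (adjusted p 0.00189) and by 0.75 ± 0.10 in TRIM33-KO (adjusted p 1.5e-05). Kdm4c, a demethylase of H3 lysine 9, fell by 0.35 ± 0.09 in WT pLV2 line 1 (adjusted p 0.00841) and by 0.78 ± 0.09 in TRIM33-KO (adjusted p 3.16e-06). Of the enzymes that place the mark itself, Suv39h1 rose by 0.47 ± 0.15 (adjusted p 0.0182) and Suv39h2 fell by 0.49 ± 0.11 (adjusted p 0.00144) in TRIM33-KO, named after their values were seen. Without replicate 2 with DOX the call of Suv39h1 was lost (0.51, adjusted p 0.0505), and those of the other genes named here in TRIM33-KO were not. All of these changes were below 2-fold.

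Among 17 centromere genes, all tested, none was called in WT or DUXBL-KO. TRIM33-KO had 3 higher and 7 lower, TRIM24-KO had 2 and 0, and lines 1 and 2 of WT pLV2 had 1 and 1, and 2 and 4. The shares of all features called are those given for the heterochromatin list, 19.6% and 19.3% in TRIM33-KO. Without the library rich in CT010467.1, TRIM33-KO had 2 and 4 and TRIM24-KO had 1 and 0, and with the replicate block 1 gene (Bub1) was called higher in DUXBL-KO, with 7.97% of all features. Hjurp, the chaperone that loads the centromeric histone CENP-A, rose by 0.40 ± 0.09 in WT pLV2 line 1 (adjusted p 0.0031) and by 0.69 ± 0.09 in TRIM33-KO (adjusted p 7.65e-06). Oip5, a subunit of the complex that prepares the centromere for that loading, fell by 0.36 ± 0.11 (adjusted p 0.0324) and by 0.58 ± 0.12 (adjusted p 0.00106) in the same lines.

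The features whose log2 CPM followed GSAT_MM most closely over the 12 DOX libraries, of 12755 features with a mean of at least 50 counts, were the retroviral repeats RMER15 (Pearson r 0.974), RMER6B (0.96) and ORR1A0-int (0.951) and the genes Gm19428 (0.958, chr13:65689613-65713454) and Gm2056 (0.952, chr12:88027004-88027438). For MMSAT4 the same measure, applied after its values were seen, named Rex2 (0.959), Zfp600 (0.958), the repeat MurSatRep1 (0.955), Trim28 (0.935) and Zfp992 (0.913). Over all 24 libraries the 5 closest to MMSAT4 were Rex2 (0.96), Zfp600 (0.944), Zfp992 (0.895), Gm13230 (0.883) and Zfp991 (0.878). All 5 lie on chromosome 4, from Gm13230 at chr4:145446740-145450888 to Zfp991 at chr4:147132038-147180579 (mm10, GENCODE M21). How reads that match both a gene and a satellite copy were counted is not given in the sources used here.

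Gm10800 and Gm21738 were among the closest to GSAT_MM over the 24 libraries (r 0.977 and 0.965), and their transcripts align to the unit printed above. The search was therefore extended, after these values were seen, to all GENCODE M21 transcripts with at least 70% identity to the unit over at least 50% of their length. It found 13 genes, of which 12 have values: Gm10715, Gm10717, Gm10718, Gm10719, Gm10720, Gm10721, Gm10722, Gm10800, Gm10801, Gm11168, Gm17535 and Gm21738. All 12 are annotated as protein-coding. Their identity, averaged over all overlapping matches to the unit set in tandem, was 77.8% to 81.5%. Gm26870, from which the unit was taken, had 83.0% on this measure, so it understates the likeness to the unit. Whether a read counted for one of them would also count for GSAT_MM is not known, so their values are no independent measure of it.

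Gm10800 (chr2:98666547-98667301) had the most counts, 2 to 73 without DOX and 87 to 1263 with DOX, with no overlap in any line. The 12 genes together had 6 to 180 counts without DOX and 194 to 1867 with DOX per library. In the pLV2 libraries the sum was 6 to 22 without DOX, so the genes passed the filter there only through the DOX libraries, and their calls are not counted. Gm10800 had 2 to 7 counts without DOX and 87 to 447 with DOX in those lines.

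In WT, Gm10800 had 55 and 43 counts without DOX and 843 and 390 with DOX, a rise of 3.40 ± 0.65 (adjusted p 0.0381). In DUXBL-KO it had 73 and 31 and then 1263 and 645, a rise of 4.40 ± 0.66 (adjusted p 0.00853). The call of Gm10800 was lost in WT in a fit of only the groups compared, and in both lines in some fits with a library left out. Of the other genes tested in these lines, Gm10718, Gm10719, Gm10721, Gm10722 and Gm11168 had at most 8 counts in any library without DOX. They passed the filter only through the DOX libraries, so calls over the list are not counted here either.

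**Figure D5:**
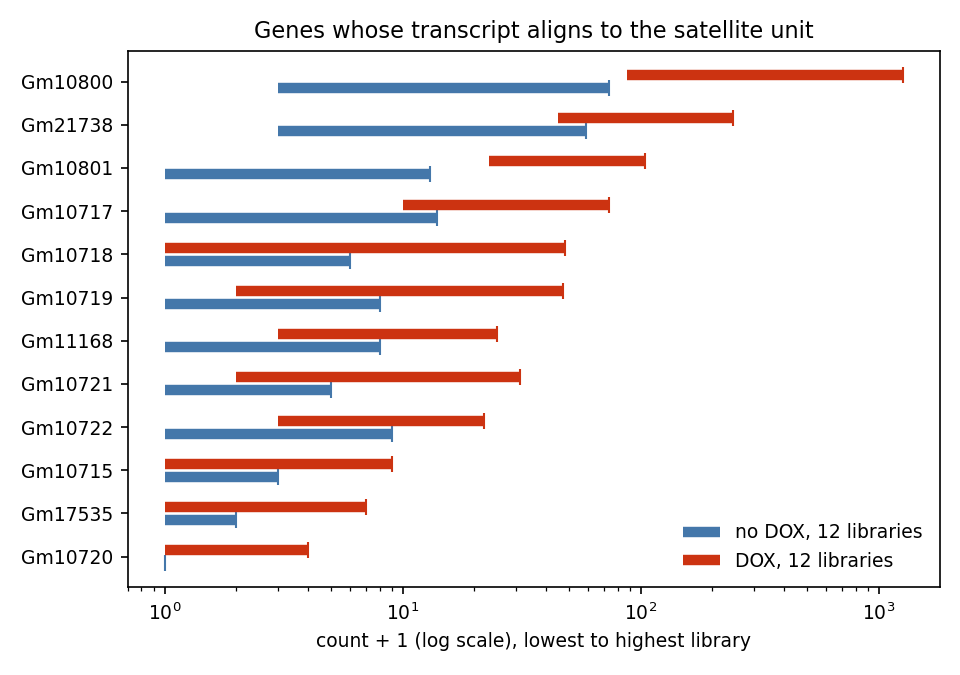
Counts plus 1 on a log scale for the 12 genes whose transcript aligns to the satellite unit, drawn from the lowest to the highest of 12 libraries without DOX (blue) and 12 with DOX (red). The ranges are apart for Gm10800 and Gm10801 and overlap for the other 10, down to Gm10720 with 0 counts without DOX and at most 3 with it.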

How the data were processed

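Per the file headers, each deposited table holds the authors' raw counts, as whole numbers, for genes and repeat subfamilies of 1 library. Per the labels' protocols, libraries kept the strand, were depleted of rRNA and gave paired reads of 75 bases. Per the submitters' processing notes, bcl2fastq 2.20.0, cutadapt 1.18, STAR 2.7.6a and mm10 were used. The counting tool, the repeat annotation and how multiply matching reads were assigned are not given in the sources used here, and they bear directly on satellites.

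The 8 WT and DUXBL-KO libraries and the 16 pLV2 libraries were fitted apart with edgeR 4.0.16 (R 4.3.3): filterByExpr by group with a minimum count of 10, TMM factors from gene counts, and the quasi-likelihood test, with Benjamini-Hochberg adjustment over all 19041 or 19044 features tested and a threshold of 0.05. Standard errors are the log2 fold change over the root of F, and 95% intervals use the test's degrees of freedom. CPM use the same scaling. Gene names came from GENCODE M21, which matched 54349 of 55487 gene identifiers with their version and 792 without it, and 346 were not matched. Every satellite subfamily is named, with the 5 features closest to GSAT_MM over the DOX libraries and, of each list, genes among the 2 with the smallest p in each direction in a line. Deviations of same-numbered libraries from their group means correlated at 0.255 to 0.549 in all 6 pairs of WT and DUXBL-KO groups, so the fit with the replicate number as a block is given beside results it changes there, although the labels name no shared batch and a group has only 2 libraries. In the pLV2 set they correlated at 0.0142 to 0.195 within lines and -0.0467 to 0.0681 between them, and the block is an alternative only. Members and lists were chosen with earlier results of these data known. The unit was aligned with BLAST. The fit was also run on simulated counts, whose outcome is not given here. Alternatives were RLE factors, scaling by genes and repeats or without CT010467.1, DESeq2 1.42.0, other filters, other sets of libraries, reference lines, the replicate number as a block and each library left out.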

Additional observations from a re-analysis of the deposited data

How the results depend on the processing

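The GSAT_MM response to DOX kept its direction in all 6 lines under every alternative, at 1.71 to 3.61 in WT, 2.90 to 4.02 in DUXBL-KO, 4.69 to 5.06 and 6.06 to 6.66 in WT pLV2 lines 1 and 2, 4.83 to 5.53 in TRIM24-KO and 6.54 to 6.70 in TRIM33-KO. With the replicate number as a block, 1 satellite was called in WT (GSAT_MM, 2.49, adjusted p 8.65e-04), 1 in DUXBL-KO against WT without DOX (MMSAT4, 0.37) and 1 in TRIM33-KO against WT pLV2 without DOX (IMPB_01, 0.26), and no other count of satellite calls changed by over 1.5 times. The WT response also gave 1 call with all 24 libraries in 1 fit and with no filter. Without DOX, DUXBL-KO gave 1 with no filter (MMSAT4, 0.39), TRIM24-KO gave 1 with all 24 libraries in 1 fit (ZP3AR), and TRIM33-KO gave 1 (IMPB_01) in DESeq2, with no filter, with only the groups compared, against line 1 alone and with scaling without CT010467.1. Among interactions, GSAT_MM gave 1 call with no filter for DUXBL-KO, TRIM33-KO and line 2 against line 1, 1 for TRIM33-KO with only the groups compared, against line 1 alone and with p adjusted over repeats alone, and 1 for line 2 against line 1 in DESeq2 and over repeats alone. With no filter, every feature with a count enters the fit and p-values became very small (adjusted p 8.23e-34 for GSAT_MM in WT), which is in doubt, so calls with no filter are not taken as support. Leaving out 1 library at a time gave 0 to 1 calls for the DUXBL-KO response and 1 to 2 for TRIM24-KO. For the TRIM33-KO response it gave 2 each time (GSAT_MM and IMPB_01), with SYNREP_MM left aside as above. It gave 2 to 3 and 0 to 1 for TRIM24-KO and TRIM33-KO without DOX. For the interactions of TRIM33-KO and of line 2 it gave 0 to 1. Scaling by genes and repeats turned MMSAT4 (-0.039) and ZP3AR (-0.00127) in WT pLV2 line 2. GSAT_MM turned without DOX in TRIM24-KO against line 2 alone (0.194) and in TRIM33-KO against line 1 alone (-0.117), in the interaction of TRIM24-KO against line 1 alone (0.336, and -1.17 against line 2 alone), and without replicate 1 of WT without DOX in DUXBL-KO against WT (-1.14 to 0.781 over libraries left out) and in its interaction (-0.0524 to 1.86). Values that were not called also turned with a library left out: IMPB_01 in WT (-0.00337 to 0.103) and DUXBL-KO (-0.215 to 0.335), MMSAT4 in WT (-0.261 to 0.222), DUXBL-KO (-0.313 to 0.236), WT pLV2 line 2 (-0.0685 to 0.0936) and TRIM24-KO (-0.0436 to 0.139), and ZP3AR in WT (-0.206 to 0.0756) and WT pLV2 lines 1 (-0.081 to 0.164) and 2 (-0.0424 to 0.203). The causes were not tested. Low counts limit SYNREP_MM, SUBTEL_sa and MurSAT1, and the handling of reads with several matches, unknown here, limits all satellites.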
